A study of Mus musculus with 72 samples.

Results

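The libraries described here are those made with the chromosome 6 bait from cells that had received both aphidicolin (Aph) and ART558, 7 of the 72 samples of the series. They were chosen by their labels. Of these, 3 came from Xrcc4/p53-deficient neural progenitor cells (genotype NestinCre+Xrcc4-/-p53-/-) and 4 from wild-type primary neural stem/progenitor cells. Aph was given at 0.5 µM for 72 h and then at 0.25 µM for 24 h, and ART558 at 5 µM for 72 h and then at 2.5 µM for 24 h, in both genotypes. The deficient cells are 1 line derived from embryonic stem cells, and the study calls its repeats technical in one place and biological in another. The study describes a chromosome 8 gain in part of the untreated line, which it no longer saw under both drugs, and under both drugs a partial loss of chromosome 6, which carries the bait. The part of that loss in the results was not tested. The wild-type cells were grown from brains of mouse embryos, and the study calls their repeats biological. Genotype, p53 status, cell source and sequencing run changed together: all 3 deficient libraries lie on 1 run and all 4 wild-type libraries on another, so what each of these contributes cannot be told apart. The comparison addresses which joining remains when ligation by non-homologous end joining is lost and Pol θ is inhibited, set against cells that keep that ligation under the same drugs.

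Non-homologous end joining (NHEJ) seals most DNA double-strand breaks (DSBs) in mammalian cells. XRCC4 holds and stabilises DNA ligase IV, the enzyme of its last step, and p53 is the tumour suppressor whose loss lets cells with unrepaired breaks survive. Without NHEJ, broken ends are resected and joined by alternative routes. The best known is theta-mediated end joining, in which Pol θ anneals short stretches of shared sequence (micro-homology), extends them and often leaves short templated insertions. ART558 inhibits the polymerase domain of Pol θ, and Aph inhibits the replicative DNA polymerases and thereby stalls forks. Recurrent DNA-break clusters (RDCs) are the long neural genes in which Aph-treated neural progenitors break most often.

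In LAM-HTGTS, Cas9 cuts 1 known site (the bait), and a primer beside the cut reads through the bait end into whatever DNA it was joined to (the prey). Each junction therefore shows where the bait stopped, where the prey started, and whether bases were shared or added between them. The cut lies on chromosome 6 of GRCm38/mm10 between bases 70950108 and 70950109. No protein-coding gene covers it, and the nearest, *Foxi3* (a forkhead transcription factor gene), starts 6422 bp away at chr6:70956531-70961066. The guide and the bait are shown because each later value is counted from them. The guide is read on the minus strand at chr6:70950103-70950125 with its PAM in capitals, and the bait at chr6:70950109-70950206, also on the minus strand, with the bases after the nested primer in capitals.
Guide: gagggttggaaatgctcgtaTGG
Bait: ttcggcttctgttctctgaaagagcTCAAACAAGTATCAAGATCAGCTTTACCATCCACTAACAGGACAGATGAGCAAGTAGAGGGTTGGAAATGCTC
The uncut end of the bait is thus 98 bp long, the read runs towards lower coordinates, and a prey of the broken chromosome below 70950109 on the same strand is a deletion.

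The deficient libraries held 6799, 9640 and 6078 junctions on the assembled chromosomes, and the wild-type libraries held 2291, 1252, 1843 and 1922. Junctions on other chromosomes or more than 1 Mb from the cut, called distant below, numbered 3881, 5332 and 4006 against 1880, 939, 1596 and 1585. The wild-type libraries were thus shallower and repeated themselves far more. When a joint was defined by its bait end and the next 20 bases of the read, distinct joints made up 96.6%, 89.3% and 69.7% of the distant junctions of the deficient libraries, and 42.5%, 60.7%, 26.1% and 42.3% of those of the wild-type libraries. Deficient library 3, the lowest of its group, still exceeded every wild-type library. Joints seen 10 times or more held 0%, 0.413% and 6.12% of the distant junctions of the deficient libraries and 38.4%, 14.8%, 55.8% and 40.9% of those of the wild-type ones.

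The most frequent joint of a wild-type library held 5.01% to 15.7% of its distant junctions, and its copies were placed on 18 to 21 chromosomes. In wild-type library 3 that joint ended the bait at 39 bp and went on into the telomeric repeat, shown in capitals after the last 20 bases of bait:
Wild-type library 3: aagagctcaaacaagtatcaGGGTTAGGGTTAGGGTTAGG
Prey sequences with 3 or more telomeric repeats formed 9.20%, 1.70%, 21.5% and 11.6% of the distant junctions of the wild-type libraries and at most 0.0515% of those of any deficient library. In wild-type library 4, 16.6% of distant preys held a run of 10 or more G. Because of these repeats, the main results were also computed with every distinct joint counted once per library. For the 38 measures of joints and positions compared below, the text gives that value where it changed whether the groups overlapped. The 2 runs also read the bait with different errors. The base at read position 16 differed from the reference in 76.9%, 95.5% and 92.6% of the deficient libraries' bait reads and in at most 0.855% of those of any wild-type library, while the median position differed in 0.621% to 0.750% against 0.215% to 0.60%. The part of repeats and read errors in the results was not tested beyond the values given beside them.

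Groups were compared by a two-sided exact permutation test over libraries. With 3 libraries against 4, the smallest p it can give is 0.0571, so no single comparison could reach 0.05, and that value means only that the groups did not overlap. Of 38 measures of joints and positions, 13 did not overlap (8 higher and 5 lower in the deficient libraries), with a smallest Benjamini-Hochberg adjusted p of 0.167 in the exact test. Counted once per distinct joint, 18 did not overlap (9 higher and 9 lower, smallest adjusted exact p = 0.121). A stratified exact test added the 4 libraries of the same bait in Aph alone (1 deficient, 3 wild-type, on the same 2 runs), exchanged labels only within a treatment, and could reach 0.00714. In it, 17 of the 38 measures passed an adjusted p of 0.05. Since the runs are the same, it shares the confounding of genotype with run. The spread among deficient libraries is that within 1 line, and may be technical.

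Junctions near the break made up more of the deficient libraries. Within 1 Mb of the cut lay 42.9%, 44.7% and 34.1% of their junctions, against 17.9%, 25%, 13.4% and 17.5% in the wild-type libraries. The groups did not overlap, and the means differed 2.20-fold (40.6% ± 5.68 against 18.5% ± 4.81, SD, n = 3 and 4, exact p = 0.0571). Over both Aph treatments the difference was 28.3 percentage points (stratified exact p = 0.00714, adjusted 0.0271). Counting each distinct joint once brought the groups closer, to 42.3% ± 4.02 against 26.9% ± 0.893, still without overlap. Correspondingly, junctions with other chromosomes formed 46.9%, 46.0% and 58.1% of the deficient libraries and 71.4%, 60.7%, 79.9% and 73.8% of the wild-type ones. Preys on chromosome 6 beyond 1 Mb held similar shares, 7.80% to 10.2% against 6.67% to 14.3% (exact p = 0.743). At other baits under both drugs the genotypes overlapped in the share within 1 Mb of the break. It was 27.6% to 30.7% in wild-type cells (chromosome 14), and 27.4% to 37.5% (chromosome 12) and 38.7% to 59.6% (chromosome 8) in deficient cells.

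**Figure D1:**
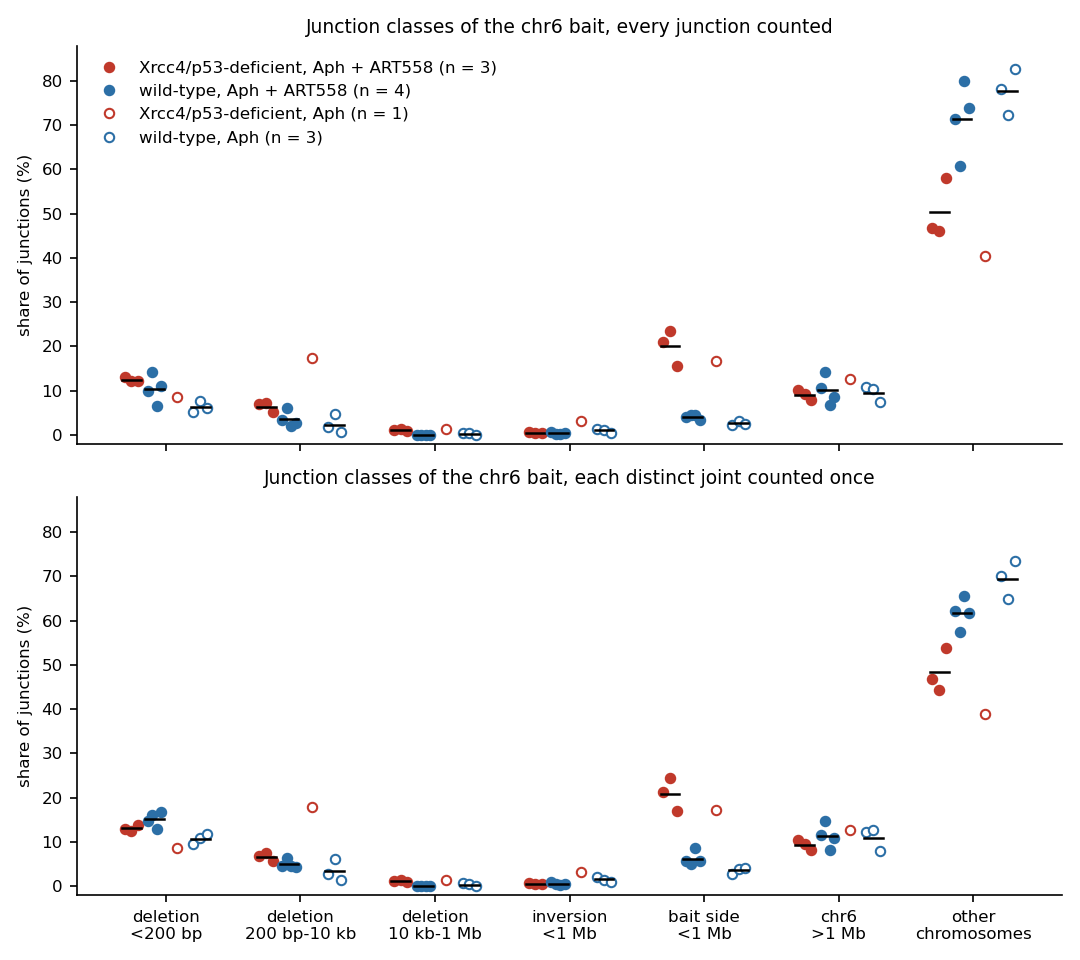
Share of each library's junctions (percent, vertical axes) by class of prey position, with every junction counted (top) and with each distinct joint counted once (bottom); points are libraries, open points are those in Aph alone, and bars are means of groups. With every junction counted, the 3 deficient libraries in both drugs lie above all 4 wild-type ones on the bait side within 1 Mb, at 15.5% to 23.6% against 3.33% to 4.56%.

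Most of the difference near the break lay on the bait's own side of the cut. Junctions there, in DNA that the bait end itself belongs to, formed 21.1%, 23.6% and 15.5% of the deficient libraries and 3.97%, 4.47%, 4.56% and 3.33% of the wild-type ones (4.91-fold, exact p = 0.0571 and stratified exact p = 0.00714). A prey on this side can read away from the break or back towards it. Those reading away from the break held 18.6%, 21.4% and 13.2% of the deficient libraries' junctions (1267, 2064 and 804 junctions) and 1.31%, 3.19%, 1.14% and 1.46% of the wild-type libraries' (30, 40, 21 and 28). Preys reading towards the break showed no such gap, with 2.16% to 2.49% against 1.28% to 3.42% (exact p = 1). In the deficient libraries the preys reading away lay a median of 2399, 2496 and 2484.5 bp from the cut, in the wild-type libraries 237, 762.5, 134 and 805 bp. On the bait side in both orientations together, preys 1 to 10 kb from the cut held 12.4%, 14.6% and 9.07% of deficient junctions and 0.175%, 1.28%, 0.868% and 0.260% of wild-type ones. The deficient library in Aph alone had 13.6% of its junctions reading away and the 3 wild-type libraries in Aph alone had 0.253% to 2.06%. The median distance of these was 2020 bp in that deficient library and 132, 238362 and 231 bp in the wild-type ones, over 4, 19 and 27 junctions.

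Deletions, the products of joining across the cut after loss of bases, had similar median lengths and differed most among the long ones. Those under 200 bp formed 12.1% to 13.1% of the deficient libraries and 6.57% to 14.1% of the wild-type ones (exact p = 0.286). With each joint counted once their order turned, at a mean of 13.1% against 15.1%. Deletions of 200 bp to 10 kb held 6.91%, 7.2% and 5.12% against 3.32%, 6.07%, 2.06% and 2.71%, which overlapped (exact p = 0.114). Those of 10 kb to 1 Mb were rare but separated the groups, at 1.16%, 1.27% and 0.921% against 0.0873%, 0%, 0% and 0.0520%. Among all deletions within 1 Mb, 30.2%, 32.6% and 24.8% removed more than 1 kb in the deficient libraries and 7.54%, 3.95%, 10.1% and 7.2% in the wild-type ones. The median deletion measured 58 to 76 bp against 64 to 77.5 bp, and the groups overlapped (exact p = 0.857). In the deficient library with Aph alone it was 746 bp and deletions of 200 bp to 10 kb held 17.3% of junctions, and these took 31.3% to 45.7% in the deficient DMSO libraries of this bait. Inversions past the break were few in both genotypes, 0.425% to 0.647% against 0.217% to 0.655%.

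The sequences of the most frequent deletions show which micro-homologies were used. Each line gives bait and then prey with the shared bases in capitals. The 3 most frequent in the deficient libraries removed 14, 23 and 32 bp.
Deficient 1: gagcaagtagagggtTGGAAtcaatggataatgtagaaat
Deficient 2: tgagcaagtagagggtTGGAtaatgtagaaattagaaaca
Deficient 3: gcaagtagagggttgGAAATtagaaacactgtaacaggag
The first used 5 shared bases and was seen 4, 5 and 6 times in the deficient libraries and 3, 1, 1 and 1 times in the wild-type ones. It also occurred 40 times over the 9 deficient DMSO libraries of this bait. The second and the third, with 4 and 5 shared bases, were seen 3, 3 and 5 times and 3, 4 and 3 times in the deficient libraries and 5 and 2 times in all in the wild-type ones. The deficient libraries hold more junctions, and as mean shares of a library's junctions these joints formed 0.0698%, 0.0525% and 0.0450% in the deficient and 0.0793%, 0.0716% and 0.0239% in the wild-type libraries, so the first and the second were not more frequent in deficient cells. The 3 most frequent in the wild-type libraries removed 46, 70 and 475 bp, and the last has no shared base.
Wild-type 1: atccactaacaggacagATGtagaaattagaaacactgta
Wild-type 2: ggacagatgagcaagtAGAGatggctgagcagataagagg
Wild-type 3: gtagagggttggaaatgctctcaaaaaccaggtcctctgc
Wild-type 1 was seen 2, 5, 2 and 1 times in the wild-type libraries and once in each deficient library with both drugs. Wild-type 3 joined a bait cut exactly at the Cas9 site, with no base lost from it, to a prey 475 bp away, and was seen 1, 5, 0 and 1 times in the wild-type libraries with both drugs, so that 5 of its 7 copies came from library 2. It was seen 0 times in the 3 wild-type libraries with Aph alone and 0 times in the 3 deficient libraries with both drugs, the one with Aph alone and the 9 in DMSO. The 7 libraries shared few such joints. Of 4230 distinct deletion joints, 3803 occurred in the deficient and 542 in the wild-type libraries, and the 115 found in both were 3.02% of the former and 21.2% of the latter. Of deletions without an insertion, 14.1%, 12.6% and 15.5% used 5 to 10 shared bases in the deficient libraries, against 7.46%, 9.41%, 6.86% and 7.93%. Counted once per joint these overlapped (12.9% ± 1.56 against 9.50% ± 1.81, exact p = 0.114), and in Aph alone the order was opposite, 10.1% in the deficient library against 17.3% to 20.8%.

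At distant junctions, direct joining, without shared or added bases, did not separate the genotypes when every junction was counted, but did when each joint was counted once. It was counted, as were the micro-homology classes, among junctions with 0 to 10 shared bases, so that insertions are left out of the total. Direct joints formed 30.4%, 32.0% and 29% in the deficient libraries and 30.3%, 38.4%, 32.0% and 30.2% in the wild-type ones (30.5% ± 1.5 against 32.7% ± 3.86, exact p = 0.514). Counted once per distinct joint they formed 31.1% ± 1.37 against 36.2% ± 3.44, with no overlap. Over both Aph treatments the difference counted so was -12.2 percentage points (stratified exact p = 0.00714, adjusted 0.0170). With every junction counted it was -9.74 (stratified exact p = 0.171). A share of one library carries a 95% exact binomial interval of about 28.8% to 32.1% (deficient library 1) or 34.6% to 42.2% (wild-type library 2), for counting error only. Micro-homology of 2 to 4 bp, the range typical of alternative joining, held 35.1%, 34.3% and 36.2% against 26.3%, 25%, 16.8% and 26.7%. The groups did not overlap, with a difference of 11.5 percentage points (exact p = 0.0571), which was 6.8 when each joint was counted once and 16.9 over both Aph treatments (stratified exact p = 0.00714, adjusted 0.0271). Single shared bases spread widely among the wild-type libraries, 21.4% to 47.2%, around the 22.4% to 23.8% of the deficient ones. At 5 to 10 bp the libraries also overlapped, 10.6% to 12.4% against 4.05% to 15.3%. Mean micro-homology overlapped with every junction counted (1.929 against 1.604 bp, exact p = 0.171). It did not when each joint was counted once (1.895 against 1.569 bp). With telomeric preys left out, the difference at 2 to 4 bp was 10.8 percentage points. Wild-type libraries with the chromosome 14 bait under both drugs had 36.6% to 37.5% at 2 to 4 bp, above the deficient libraries here. Deficient cells under both drugs had 35.7% to 38.8% with the chromosome 8 bait and 30.3% to 32.8% with the chromosome 12 bait.

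**Figure D2:**
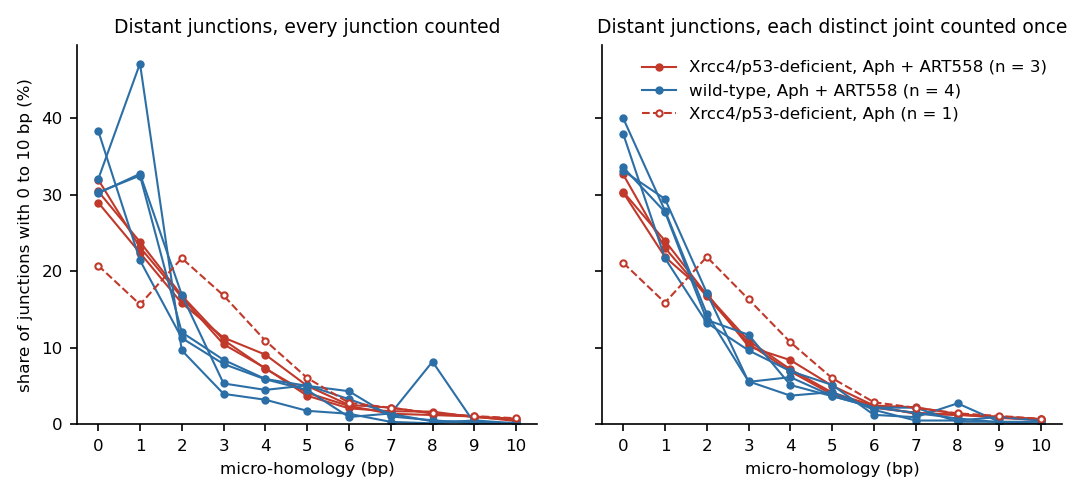
Share of distant junctions with 0 to 10 shared bases (percent, vertical axis) by length of micro-homology (bp, horizontal axis), 1 line per library, with every junction counted (left) and each distinct joint counted once (right); the dashed line is the deficient library in Aph alone. The genotypes overlap at 0 bp in the left plot, and the sum over 2 to 4 bp is 34.3% to 36.2% in the deficient libraries and 16.8% to 26.7% in the wild-type ones.

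The share of direct joints in deficient cells differed between the treatments within their run, and this is given as a description. The deficient library in Aph alone had 20.7% direct joints and 49.4% with 2 to 4 bp. The 2 deficient DMSO libraries of that run had 17.5% and 19.6% direct joints, and the 7 deficient DMSO libraries of other runs 7.42% to 8.98%. With both drugs, deficient cells reached like values at other baits, 28.2% to 31.0% on chromosome 8 and 33.5% to 36.1% on chromosome 12. In wild-type cells in Aph alone direct joints formed 47.5%, 33.7% and 32.7%. Direct joining under both drugs in the wild-type cells was 25.5% to 27.9% with a bait on chromosome 14, where 83.8% to 91.0% of distant junctions were distinct joints.

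Within 1 Mb of the break the genotypes did differ in direct joining. It formed 15.2%, 17.3% and 18.8% in the deficient libraries and 23.5%, 20.3%, 38.6% and 23% in the wild-type ones (exact p = 0.0571). Wild-type library 3 stood highest, and wild-type library 2 came nearest to the deficient libraries. Over both Aph treatments the difference was -8.53 percentage points (stratified exact p = 0.00714, adjusted 0.0271). Micro-homology of 2 to 4 bp held 50.5%, 49.9% and 51.2% against 43.4%, 46.4%, 34.9% and 47.9%, and 5 to 10 bp held 12.5%, 11.2% and 12.1% against 5.88%, 8.70%, 6.63% and 8.45%. With insertions kept in the total the difference at 2 to 4 bp turned to -2.66 percentage points. The shares at 5 to 10 bp overlapped once each joint was counted once (exact p = 0.171), and over both Aph treatments the difference at 5 to 10 bp was -2.05 percentage points, since the wild-type libraries with Aph alone had 15.1% to 21.3%. Direct joints were rarer near the break than at a distance in 6 of the 7 libraries, wild-type library 3 being the exception, and in all 7 when each joint was counted once. In the 7 deficient DMSO libraries of other runs the order was opposite, 11.3% to 15.5% near against 7.42% to 8.98% at a distance. In the same run as the both-drug libraries the order was that seen with both drugs, 10.2% near against 20.7% in Aph alone and 14.5% to 15.3% near against 17.5% to 19.6% in the 2 DMSO libraries.

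Insertions are bases present in neither the aligned bait nor the aligned prey, and the longest listed had 30. At distant junctions the deficient libraries had insertions in 20.6%, 24.5% and 34.5% and the wild-type libraries in 46.8%, 30.2%, 34.8% and 47.6%, which overlapped (exact p = 0.114). Counted once per joint the shares were 27.3% ± 8.87 and 47.0% ± 4.26, with no overlap. Wild-type distant preys held the telomeric repeats and runs of G given above, and in the wild-type libraries with the chromosome 14 bait, which had at most 0.0464% telomeric preys, insertions formed 12.8% to 16.1%. Short insertions of 1 to 9 bp held 13.1%, 13.6% and 21.8% against 30.1%, 20.6%, 24.2% and 35.5%, which overlapped (exact p = 0.114). Counted once per joint they held 16.7% against 32.8%, with no overlap. Those of 10 bp or more held 7.50% to 12.7% against 9.69% to 16.6% (exact p = 0.514). The median insertion length overlapped with every junction counted (means 6.33 against 5.75 bp, exact p = 0.8). Counted once per joint it did not overlap (6.33 against 3.75 bp). Over both Aph treatments the difference counted so was 1.875 bp (stratified exact p = 0.00714).

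Within 1 Mb insertions occurred in 46.1%, 49.4% and 51.9% of the deficient junctions and in 33.6%, 33.9%, 32.8% and 36.8% of the wild-type ones (exact p = 0.0571), although counted once per joint the groups overlapped (50.8% against 43.8%, exact p = 0.114), and over both Aph treatments the difference was 3.11 percentage points (stratified exact p = 0.479) with every junction counted and -5.75 (p = 0.35) with each joint counted once. Those of 10 bp or more formed 19.3%, 20.8% and 21.2% of the deficient junctions against 6.33%, 8.31%, 1.62% and 6.53% (20.4% ± 0.981 against 5.70% ± 2.86, 3.59-fold, exact p = 0.0571), and 21.1% against 6.51% counted once per joint. The median insertion near the break was 7, 8 and 7 bp in the deficient libraries and 2 bp in every wild-type library. On chromosome 6 beyond 1 Mb long insertions held 9.50%, 13.6% and 13.1% against 6.56%, 0.559%, 5.69% and 2.99%, while on other chromosomes they overlapped at 7.06% to 12.6% against 11.1% to 18.2%. In deficient cells with Aph alone on the same run, long insertions formed 6.72% of junctions within 1 Mb, inside the 5.21% to 11% of the 3 wild-type libraries with Aph alone, and in the 2 DMSO libraries of that run 7.85% and 8.32%. Beyond 1 Mb on chromosome 6 they formed 4.76% in the deficient library with Aph alone, below the 7.29% to 19.9% of the wild-type ones. Over both Aph treatments the difference in long insertions was 6.56 percentage points within 1 Mb (stratified exact p = 0.0571) and 0.306 beyond it (p = 0.95). The median mismatch per read position was 0.621% to 0.750% in the 3 libraries with both drugs and 0.245% in the one with Aph alone, and its part in the long insertions was not tested.

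**Figure D3:**
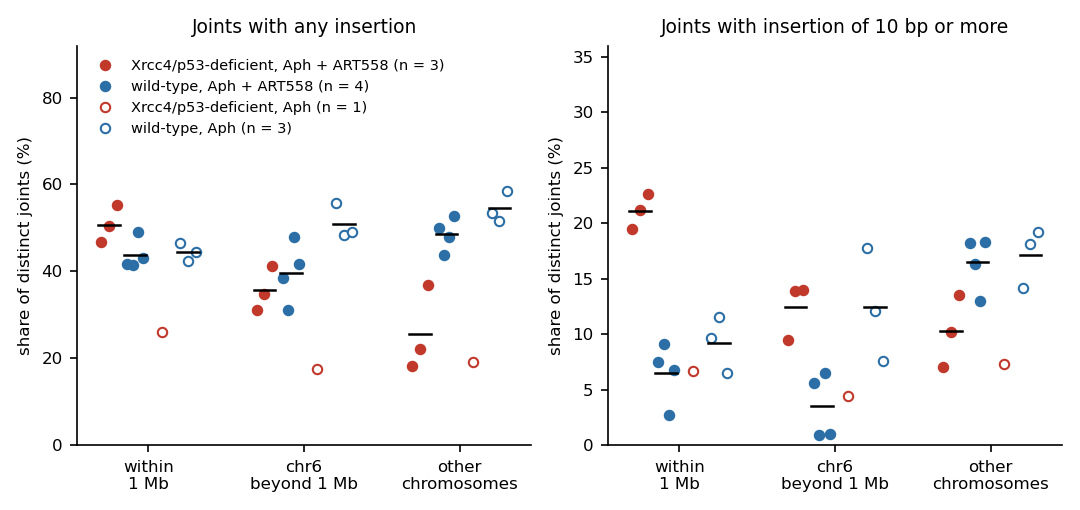
Share of distinct joints with any insertion (left) and with an insertion of 10 bp or more (right; percent, vertical axes) by prey class, each joint counted once; points are libraries, open points are those in Aph alone, and bars are group means. Within 1 Mb, long insertions average 21.1% in the deficient and 6.51% in the wild-type libraries, without overlap.

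Some long insertions held sequence from beside the break. An insertion was matched when any 10 consecutive bases of it occurred within 500 bp of the cut on either strand. Within 1 Mb, 181 of 564, 247 of 896 and 95 of 439 long insertions matched in the deficient libraries (32.1%, 27.6% and 21.6%). The matching share was 42.9% in deficient cells with Aph alone, 60.9% and 62.7% in DMSO on the same run and 65.4% to 72.3% in the 7 other DMSO libraries. The wild-type libraries had only 26, 26, 4 and 22 such insertions, of which 20, 8, 0 and 12 matched. The piece found most often in deficient insertions is 10 bases from the far side of the cut, 10 to 19 bases past it, shown in capitals within chr6:70950079-70950108 (minus strand):
Past the cut: gtatggaatCAATGGATAAtgtagaaatta
It occurred in 19 of 549, 28 of 872 and 6 of 396 distinct long insertions near the break in the deficient libraries, in 12 of 330 with Aph alone, and in 4 of 24, 1 of 21, 0 of 4 and 0 of 17 in the wild-type libraries. The wild-type counts are too few to set against the deficient ones.

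Intact bait ends were rarer in the deficient cells. A full-length bait, within 1 bp of the cut, was present in 13.9%, 12.3% and 11.2% of their distant junctions and in 37.2%, 32.5%, 27.3% and 43.0% of those of the wild-type cells (12.4% ± 1.39 against 35% ± 6.70, exact p = 0.0571). The groups were far apart, and counted once per joint the means were 12.1% and 30.6%. Over both Aph treatments the difference was -23.2 percentage points (stratified exact p = 0.00714, adjusted 0.0271). Within 1 Mb full-length baits were rarer in both genotypes and again did not overlap, at 3.74%, 2.58% and 2.80% against 7.54%, 8.95%, 8.50% and 7.42%. On chromosome 6 beyond 1 Mb the gap was wider still, 7.35% to 9.06% against 39.8% to 44.3%. In deficient DMSO libraries full-length baits formed 9.44% to 15.6% of distant junctions, a range that holds the values with both drugs.

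Loss of 20 bp or more from the bait was seen in 44.1%, 46.6% and 45.1% of deficient distant junctions and in 26.0%, 22.8%, 51.4% and 20.8% of wild-type ones. Wild-type library 3, whose telomeric joint ends at 39 bp, stood above the deficient libraries, and the groups overlapped (exact p = 0.229). With that joint and all others counted once, they did not, at 45.9% ± 1.21 against 30.5% ± 5.23. Mean bait length at distant junctions overlapped with every junction counted (76.98 against 83.57 bp, exact p = 0.229). It did not when each joint was counted once (76.63 against 83.59 bp). Deficient DMSO libraries lost 20 bp or more in 21.7% to 35%, and the deficient library with Aph alone in 36.3%.

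**Figure D4:**
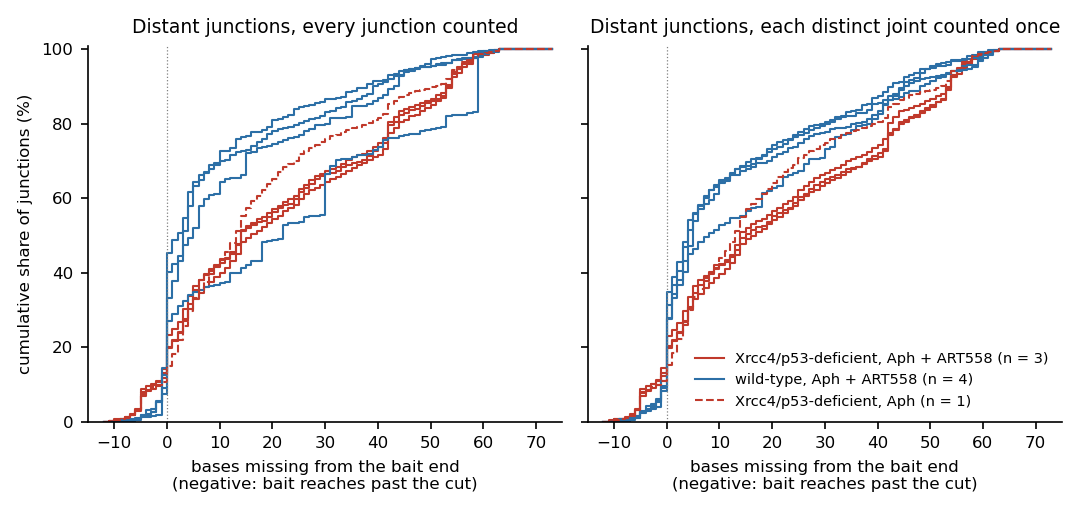
Cumulative share of distant junctions (percent, vertical axis) by bases missing from the bait end (horizontal axis; below 0 the bait reaches past the cut), 1 line per library, with every junction counted (left) and each distinct joint counted once (right); the dashed line is the deficient library in Aph alone. The wild-type lines step up at 0, where full-length baits hold 27.3% to 43.0% against 11.2% to 13.9% in the deficient libraries, and the lowest wild-type line beyond the step is library 3.

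Single positions of the bait stood out. The exact cut, 98 bp, held 9.02%, 8.12% and 6.54% of deficient and 25.6%, 24.2%, 14.5% and 37.7% of wild-type distant junctions. Of the 8 most frequent bait ends of the deficient libraries, 4 were higher in each deficient library than in any wild-type library. The sequences show the last 30 bases of the bait at each, with bases past the cut in capitals.
103 bp: agcaagtagagggttggaaatgctcGTATG
84 bp: tccactaacaggacagatgagcaagtagag
56 bp: caaacaagtatcaagatcagctttaccatc
44 bp: tctgaaagagctcaaacaagtatcaagatc
The end at 103 bp keeps 5 bases beyond the Cas9 cut, and held 5.31%, 4.44% and 3.64% against 0.851%, 1.06%, 0.940% and 0.631%. It formed 4.77% with Aph alone and 2.27% and 1.77% in DMSO on the same run, but 0.0318% to 0.140% in the 7 deficient DMSO libraries of other runs. The end at 84 bp held 3.15% to 3.82% against 0.426% to 1.13%, and was as frequent in the DMSO libraries of other runs (2.88% to 3.27%). Those at 56 bp and 44 bp held 4.26% to 4.89% and 2.68% to 3.83% against 0.439% to 1.49% and 0.213% to 0.958%. In the wild-type cells the first library in Aph alone went against this order, with 9.17% at 56 bp, above the deficient libraries, and 3.62% at 84 bp, within their range. Counted once per joint it still held 7.72% at 56 bp. At 84 bp it then held 1.69%, below the 3.09% to 3.55% of the deficient libraries. In the deficient DMSO libraries of other runs the ends at 56 bp and 44 bp held at most 0.447% and 0.518%, so 3 of these 4 ends were more frequent in the DMSO libraries of this run than in those of the others. They were chosen for their difference, so no test is given.

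Baits that reached 2 bp or more past the cut formed 10.9%, 9.49% and 10.7% of deficient distant junctions and 5.16%, 5.32%, 1.69% and 5.68% of wild-type ones. They include the end at 103 bp, with 5.31%, 4.44% and 3.64% against 0.851%, 1.06%, 0.940% and 0.631%. That end held only 0.0318% to 0.140% in the deficient DMSO libraries of other runs, and the class without it was not tested. Baits past the cut were joined directly in 46.0%, 42.7% and 40% of deficient cases and in 20%, 10%, 26.3% and 6.76% of wild-type cases. The wild-type shares rest on few junctions, as these libraries held only 939 to 1880 distant junctions. At full-length baits the order was opposite. Direct joining there formed 31.5%, 32.2% and 29.6% in the deficient libraries and 47.7%, 55.4%, 37.5% and 47.3% in the wild-type ones (31.1% ± 1.34 against 47.0% ± 7.36, exact p = 0.0571; 32.7% against 50.4% counted once per joint). Over both Aph treatments the difference was -24.3 percentage points (stratified exact p = 0.0143, adjusted 0.0339). At baits that had lost 1 bp or more, direct joining overlapped, with 27.4%, 30.1% and 26.7% against 18.3%, 29.3%, 29.4% and 23.8% (exact p = 0.457).

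The densities of RDCs on chromosomes other than 6 did not separate the genotypes. Density was the number of junctions in 1 Mb windows at the listed RDC positions per 1000 junctions off chromosome 6 and per Mb (JPTM). The list holds 42 RDCs of class CTR and 65 of class TTR, which lie in constant timing and timing transition regions of replication, of which 9 and 3 are on chromosome 6. CTR windows held 0.542, 0.636 and 0.412 JPTM in the deficient libraries and 0.630, 0.797, 0.247 and 0.919 in the wild-type ones (exact p = 0.629). TTR windows held 0.435, 0.473 and 0.352 against 0.444, 0.318, 0.756 and 0.330 (exact p = 1). The genome outside RDC windows held 0.386 ± 0.00304 against 0.383 ± 0.00154, so the ratio of RDC to other density was 1.23, 1.38 and 0.958 against 1.32, 1.26, 1.52 and 1.40. In deficient cells with Aph alone this ratio was 2.16, and in their DMSO libraries 0.905 to 1.44.

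Few single RDCs off chromosome 6 could be compared. Of 95, 27 held at least 10 junctions over the 7 libraries. The groups did not overlap at 4 of them (14.8%), 3 higher and 1 lower in the deficient libraries. Among 330 tiles of 1 Mb outside RDCs with as many junctions, 14.2% did not overlap, so the share was near that background (8.79% of tiles higher, 5.45% lower). *Magi2*, a scaffold gene of synapses, held 5, 5 and 3 junctions in the deficient libraries and 0 in each wild-type library. *Nrg3*, a neuregulin gene, held 2, 7 and 1 against 0. All junctions of *Magi2* and *Nrg3* lay in the deficient libraries. They thus met the minimum of 10 only through the group in which they were then called higher. *Mctp1*, named after its values were seen, held 4, 4 and 4 against 1, 0, 1 and 0. *Dcc*, the netrin receptor gene, was the lower one, with 1, 3 and 1 against 6, 1, 1 and 7. Its groups barely missed overlapping, at 0.677 JPTM in deficient library 2 and 0.679 in wild-type library 3. At this depth a count of 0 in a wild-type library allows up to 1.83 to 3.95 JPTM (3 junctions), above the 0.849 to 1.57 JPTM that *Magi2* had in the deficient libraries, so its absence is not shown. Counted once per joint, 15 RDCs had 10 junctions, of which 2 did not overlap, both higher, against 15.8% of 114 tiles higher and 7.02% lower.

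The other RDCs named here overlapped between the genotypes. *Mdga2* held 3, 3 and 10 junctions against 0, 1, 1 and 0, and *Naaladl2* 6, 5 and 3 against 2, 0, 0 and 0. *Pcdh9*, a protocadherin gene, held 6, 4 and 0 against 0 in each, so it too met the minimum of 10 through deficient libraries alone. Most of these counts lie in 1 or 2 libraries. *Auts2* held 3, 7 and 7 against 1, 0, 5 and 1, *Csmd1* 2, 5 and 0 against 0, 0, 3 and 1, and *Lsamp*, an adhesion gene outside the list, 3, 1 and 1 against 9, 0, 0 and 0. At the low end, *Ptprk* held 3, 1 and 0 against 2, 0, 20 and 2, *Csmd2* 0 in each against 0, 10, 0 and 1, and *Pcdh11x* 2, 4 and 1 against 2, 8, 0 and 0. Each of these wild-type totals lay mostly in 1 library. *Efna5*, an ephrin gene, held 2, 7 and 1 against 10, 0, 6 and 4, and *Adgrl3*, a latrophilin gene, 4, 2 and 0 against 7, 2, 0 and 9.

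On the broken chromosome, *Ctnna2* set the genotypes apart. This gene of αN-catenin, which links cadherins to actin in neurons, lies at chr6:76881637-77979699, 6.55 Mb from the cut at the listed position and on the bait's side. Its window held 201, 220 and 118 junctions in the deficient libraries and 4, 8, 3 and 1 in the wild-type ones. Per 1000 distant junctions these are 51.8, 41.3 and 29.5 against 2.13, 8.52, 1.88 and 0.631 (40.8 ± 11.2 against 3.29 ± 3.55, 12.4-fold, exact p = 0.0571). Wild-type library 2 held most of the wild-type mean, and without it the means were 40.8 and 1.55, or 26.4-fold. Counted once per joint the means were 44.3 and 3.80. The whole gene held 24.9% to 28.9% of the deficient libraries' junctions on chromosome 6 beyond 1 Mb and 0.599% to 4.47% of the wild-type ones. In Aph alone the deficient library had 314 junctions there and the 3 wild-type libraries 0, 2 and 4. The 9 deficient DMSO libraries had 3.55 to 15.2 per 1000 distant junctions in the gene, below the 29.5 to 51.8 with both drugs. Joints of the deficient cells in *Ctnna2* had insertions in 47.8%, 47.1% and 59.3% of cases, against 18.6% with Aph alone.

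*Ccser1*, on the other side of the cut at -9.15 Mb, did not separate the genotypes. It held 35, 30 and 18 junctions against 9, 16, 9 and 4. Per 1000 distant junctions the means were 6.38 ± 2.35 and 7.50 ± 6.5 (exact p = 0.914). Wild-type library 2 had the highest level of all 7, and without it the difference turned from -1.12 to 2.06. With Aph alone the deficient library held 67 junctions in the window and each wild-type library 0.

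**Figure D5:**
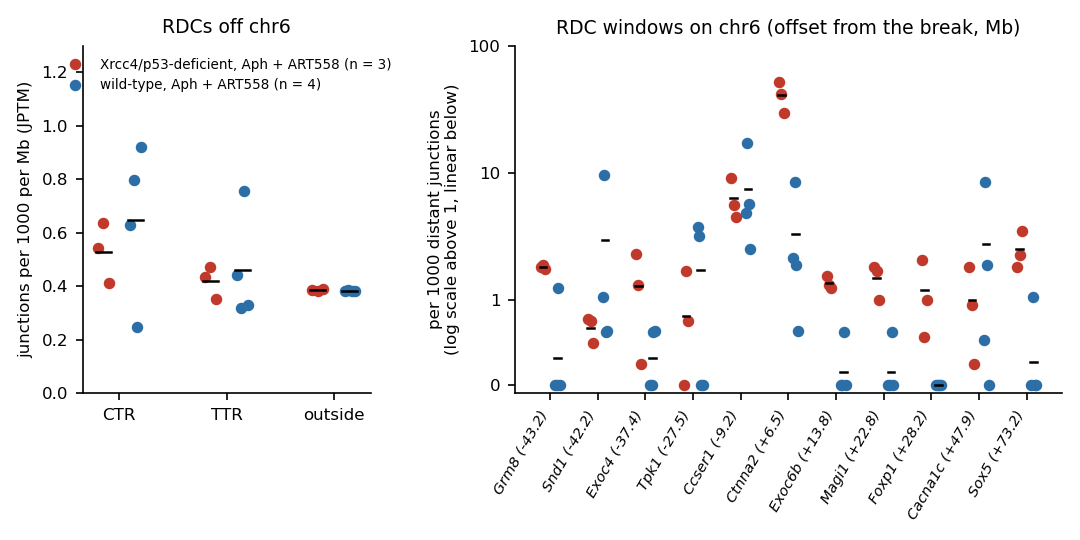
RDC windows in both drugs: density off chromosome 6 (left, JPTM, for CTR and TTR windows and outside them) and junctions of 11 chromosome 6 windows per 1000 distant junctions (right; log scale above 1 and linear below, ordered by distance from the break in Mb); points are libraries and bars are group means. At *Ctnna2* the deficient libraries stand at 29.5 to 51.8 and the wild-type ones at 0.631 to 8.52, while they overlap at *Ccser1*.

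Of the 12 RDC windows on chromosome 6, 6 were higher in each deficient library than in any wild-type library (50%), against 16.7% of 84 tiles of the same chromosome outside RDCs. Besides *Ctnna2* these were *Foxp1*, *Exoc6b*, *Grm8*, *Magi1* and *Sox5*, each with 3 to 14 junctions in a deficient library and 0 to 2 in a wild-type one. Counted once per joint, the same number was higher and *Snd1* was lower, against 21.9% and 3.12% of 64 tiles. A count of 0 in a wild-type library allows up to 1.60 to 3.19 per 1000 distant junctions, at or above most deficient levels of these 5, which ran from 0.563 per 1000 (*Foxp1*) to 3.50 (*Sox5*), so of these 6 windows only *Ctnna2* exceeded the highest of those limits in each deficient library. *Sox5*, a transcription factor gene 73.2 Mb from the cut, held 7, 12 and 14 against 0, 1, 0 and 0, and *Grm8*, a metabotropic glutamate receptor gene, 7, 10 and 7 against 0, 0, 2 and 0. Summed, the chromosome's RDC windows held 82.2, 66.6 and 47.4 per 1000 distant junctions against 17.0, 60.7, 16.3 and 6.31. Wild-type library 2 overlapped there (exact p = 0.114), and counted once per joint no library did. Over both Aph treatments the difference was 68.8 per 1000 (stratified exact p = 0.0143, adjusted 0.0339). With both drugs, *Ctnna2* carried most of the difference between the genotypes. The other 11 windows held 30.4, 25.3 and 18.0 against 14.9, 52.2, 14.4 and 5.68 per 1000, and the groups overlapped (24.6 ± 6.25 against 21.8 ± 20.7, exact p = 0.8). With Aph alone these 11 windows held 46.2 per 1000 in the deficient library and 0 to 3.55 in the wild-type ones. Over both Aph treatments they differed by 23.5 per 1000 (stratified exact p = 0.1). Outside RDC windows the chromosome beyond 1 Mb held 89.9 ± 16.6 against 101 ± 29.4 per 1000, which overlapped.

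The chromosome was also entered unevenly. Of junctions beyond 1 Mb, 69.8%, 67.1% and 68.6% lay on the bait's side of the cut in the deficient libraries and 47.1%, 38.0%, 51.2% and 41.9% in the wild-type ones, without overlap in either counting. The zone from 5 to 10 Mb on that side, which holds *Ctnna2*, had 44.5 against 10.0 per 1000 distant junctions, and the same zone on the other side 14.8 against 15.1. Of the 44.5 and 10.0, *Ctnna2* alone held 41.3 and 3.29, so this gap lay in that gene. The bait-side share also counts *Ctnna2*, with 24.9% to 28.9% of the deficient and 0.599% to 4.47% of the wild-type junctions beyond 1 Mb. Both values thus include the *Ctnna2* junctions already described.

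Protein-coding gene bodies held 51.1%, 49.3% and 48.5% of deficient distant junctions and 41.3%, 47.4%, 44.0% and 40.8% of wild-type ones, which did not overlap, but did once each joint was counted once (50.3% against 48.3%, exact p = 0.514). Windows of 2 kb around start sites held 6.24%, 6.49% and 13.8% against 8.21% to 9.37%, with deficient library 3 apart from its group. Of 20 chromosomes, 1 did not overlap (5%), the X, with 3.08%, 3.32% and 4.36% of the off-chromosome 6 junctions against 6.48%, 5.13%, 6.04% and 6.63%. The X overlapped when each joint was counted once, and chromosomes 1 and 13 did not (10%). Chromosome 8 held 5.02%, 5.12% and 4.11% against 4.16% to 5.30%.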

How the data were processed

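LAM-HTGTS junctions were taken as the authors deposited them, 1 row per junction, with its coordinates, strand and the stretch of read that each side aligned to. Per the file headers and the methods, the authors trimmed and demultiplexed the reads and ran the HTGTS pipeline, which aligns to mm10 with Bowtie2, and the deposited values, whose unit is of no standard kind (other), carry no normalization. Tool versions are not given in the sources used here. Groups follow the labels. The members, measures and gene lists were chosen with earlier results of these data known. The files hold no expression or genotype data, so the cell type was not checked.

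Micro-homology was the overlap of bait and prey in the read, from 0 to 10 bp, and negative overlap was an insertion. Junctions on unplaced sequence or the mitochondrial genome (27 to 285 per library) were left out. Guide, primer and cut were located in the RefSeq genome GRCm38.p6 from the study's oligonucleotide list, and genes came from GENCODE M21. Scripts ran in Python 3.11.15 with NumPy 2.4.6, pandas 2.3.3, SciPy 1.17.1 and Matplotlib 3.10.9, and were tested on simulated data. Since reads carry no molecular identifiers, intervals cover counting error only. Named RDCs were a fixed set of 8 and, off chromosome 6 with at least 10 junctions, the 5 largest and 5 smallest differences, not all of which are reported here. The series' other assays were not used here. The alternatives tried are given at the end, and those that count distinct joints once, leave out telomeric preys, take long insertions over both Aph treatments or leave out *Ctnna2* were chosen after seeing the data.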

Additional observations from a re-analysis of the deposited data

How the results depend on the processing

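Of 843 alternative values for 71 results, 769 kept direction and side of the 0.05 threshold, which an exact test of 3 against 4 cannot pass, 40 reversed, 17 passed the threshold only in the stratified exact test over both Aph treatments, and 17 counts moved by more than 1.5 times. Differences below are deficient minus wild-type. In that stratified test the values were 28.3 percentage points for junctions within 1 Mb, 16.9 for 2 to 4 bp of micro-homology, -16.7 for distant insertions, -8.53 for direct joining within 1 Mb, -23.2 for full-length bait, -24.3 for direct joining at it, 8.69 for gene bodies, and 68.8 per 1000 for chromosome 6 RDCs. It reversed chromosome 6 beyond 1 Mb (1.03), median insertion length (-0.208 bp), 5 to 10 bp near the break (-2.05), direct joining at shortened baits (-5.76), CTR, TTR and outside density (0.0449, 0.257 and -0.00702 JPTM), their ratio (0.51) and the plus strand (-0.275). Counting each prey position, strand and bait end once reversed chromosome 6 beyond 1 Mb (0.349) and TTR density (0.0144). Counting each joint once reversed deletions under 200 bp (-2.04), inversions (-0.0466), direct joining at shortened baits (-0.343), *Csmd1* (0.557) and insertions on chromosome 6 beyond 1 Mb (-4.04). It left 0 RDCs lower and 2 chromosomes lower. Leaving out telomeric repeats reversed direct joining at shortened baits (-0.416). With insertions in the denominator, distant direct joining (2.37) and 2 to 4 bp near the break (-2.66) reversed. Outside density reversed per all junctions (-0.0794) and per junctions over 1 Mb away (-0.0090). Group medians gave 0 for median insertion length and 0.0486 for TTR density. With a minimum of 5 junctions 10 of 67 RDCs were higher, beside 165 of 1339 tiles outside RDCs, and with 20 it was 0 of 6, beside 0 of 30. The cause was not tested.

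Without 1 library in turn, TTR density ranged from -0.0897 to 0.056 (above 0 without wild-type 3), chromosome 6 beyond 1 Mb from -2.10 to 0.441 (without wild-type 2), 5 to 10 bp from -0.959 to 2.78 (below 0 without wild-type 3), direct joining at shortened baits from 0.595 to 4.26, median insertion length from -0.25 to 1.25 bp (without deficient 2 and 3) and start sites from -2.55 to 1.24. RDCs higher ranged from 3 to 5 and lower from 1 to 5, and chromosomes higher from 0 to 3 and lower from 1 to 2. *Ccser1* ranged from -2.78 to 2.06, *Auts2* from -0.0696 to 1.06, *Csmd1* from -0.372 to 0.35, *Lsamp* from -1.35 to 0.483, *Pcdh11x* from -3.31 to 0.197, and direct joints with other chromosomes from -2.39 to 0.368.

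Same-numbered libraries did not vary together (r = 0.127, -0.209 and 0.0168 over 2483 tiles), so the numbers do not pair them. With a replicate block over 3 pairs (smallest exact p 0.25), the difference within 1 Mb was 21.8 and that of full-length bait -19.9, and start sites reversed (0.0575). Wild-type depth, 939 to 1880 distant junctions, limits what single RDCs can show.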
